A study of Mus musculus with 6 samples.

Results

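Chemokines of the CXC family that draw neutrophils, with close relatives, were examined in mouse bone marrow-derived macrophages (BMDM) lacking the PP2A catalytic subunit. The genes are Cxcl1, Cxcl2, Cxcl3, Cxcl5, Ppbp, Pf4, Cxcl12 and Cxcl14, 8 of the 55453 genes in the count table. They were chosen by name and not by a measured value, though earlier results of these data were known. RNA-Seq was done on 3 PP2A KO and 3 Wild Type (WT) libraries. PP2A KO macrophages came from LysM-cre PP2Ac fl/fl mice, in which Cre is driven by the Lyz2 promoter, active in myeloid cells, and removes the floxed exon 1 of Ppp2ca. WT macrophages came from C57BL/6 mice, so the controls carried neither Cre nor the floxed allele, and effects of either on its own cannot be told apart from those of the deletion. The study describes stimulation of its RNA-Seq macrophages with cGAMP, a ligand of STING, in both genotypes, but the sample labels name no treatment. The study's methods describe cell experiments in general as done in biological triplicate, but the labels do not say whether these replicates are separate mice or cultures. The p-values therefore measure only the spread between these libraries.

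CXC chemokines are small secreted proteins that direct leukocyte migration through G protein-coupled receptors. CXCL1, CXCL2, CXCL3, CXCL5 and the platelet protein PPBP act on CXCR2, the main chemokine receptor of neutrophils, while CXCL12 acts on CXCR4 and keeps neutrophils and their precursors in the bone marrow. Macrophages that sense microbial or tissue-damage signals produce Cxcl1 and Cxcl2 within hours through NF-kB, and their mRNAs are short-lived because AU-rich elements in the 3' end recruit decay factors such as tristetraprolin.

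Libraries held between 35257156 and 47390899 counts, and 3 counts, taken as the smallest detectable signal, equalled 0.0604 to 0.0909 CPM (counts scaled to library size), a floor that covers counting error only. Ppp2ca had 33 to 47 counts in PP2A KO and 8279 to 10654 in WT libraries. The targeted gene was thus low in each library labelled PP2A KO. All 8 macrophage markers were detected, with a summed level of 8623 to 8733 CPM in PP2A KO and 7279 to 7840 CPM in WT libraries. Fcgr1 (log2 fold change 0.70, adjusted p = 4.90e-04 from edgeR) and Mertk (0.27, 0.0398) were higher, and 6 were not called. Among all genes tested, 18.1% were higher at an adjusted p under 0.05. Lyz2 was the lowest of the 8, at 8.86 ± 1.13 CPM in PP2A KO and 7.30 ± 0.912 CPM in WT (SD, n = 3). Reads that Lyz2 may share with related genes were not examined, so its level is uncertain. Of the 8 neutrophil markers, Ly6g and Retnlg had 0 counts in every library, and Mpo, Elane, Ngp, Camp and Ltf had at most 7. Csf3r, the G-CSF receptor, was the 1 tested and was higher, at 127.9 ± 3.88 CPM in PP2A KO and 85.6 ± 3.83 CPM in WT (SD, n = 3, log2 fold change 0.58, adjusted p = 1.90e-04 from edgeR).

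In PP2A KO macrophages, Cxcl2 and Cxcl1 were higher than in WT, while Cxcl5, Ppbp, Cxcl12 and Cxcl14 were lower. Cxcl2 had a 3.38-fold higher level. Pf4 did not differ beyond the spread between libraries, and Cxcl3 was too low to be tested. Thus 7 of the 8 genes were tested, of which 2 were higher and 4 lower at an adjusted p (FDR) under 0.05 in the quasi-likelihood test of edgeR, adjusted by Benjamini-Hochberg over 13680 genes. Among all genes tested, 18.1% were higher and 19.0% lower. The libraries of the groups did not overlap for 5 of the 7 genes, against 50.9% of all genes tested. PP2A KO lay above WT in 2 of them (24.0% of all genes) and under WT in 3 (26.8%). At the thresholds of the study (an absolute log2 fold change over 1 and FDR under 0.01), Cxcl2 was the 1 gene higher and Cxcl12 the 1 gene lower, against 3.36% and 2.99% of all genes. The median over the 7 genes was -0.78 on the log2 scale, and -0.02 over all genes tested. Cxcl5 passed the filter on low counts only through the WT libraries, in which it was higher.

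**Figure D1:**
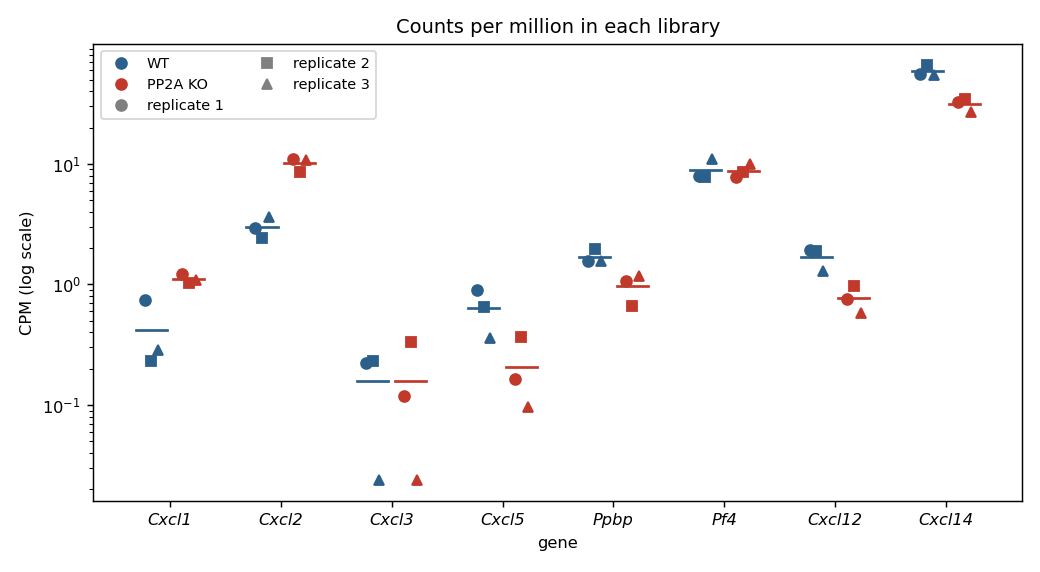
Level of each of the 8 chemokine genes in each library, in CPM on a log scale. Points are libraries, with WT in blue, PP2A KO in red and the replicate number as the shape, and short lines are group means. The PP2A KO libraries lie above all WT libraries for Cxcl1 and Cxcl2 and under them for Ppbp, Cxcl12 and Cxcl14.

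Cxcl1, Cxcl2, Cxcl3, Ppbp and Pf4 lie in a cluster of CXC chemokine genes on chromosome 5, and their promoters differ in the letters they share. Proximal promoters were taken from RefSeq on build GRCm38.p6, which had an entry for 7 of the 8 genes (none for Cxcl5). The 120 bases just upstream of the RefSeq start of 5 genes of the cluster are shown 5′ to 3′, on the forward strand, because Cxcl1 and Cxcl2 rose, Ppbp fell, Pf4 was not called and Cxcl3 was not tested. Capitals mark the NF-kB motif GGNNTTTCC on either strand and the TATA-like motif ATAAAA on the forward strand.
Cxcl2, chr5:90903779-90903898: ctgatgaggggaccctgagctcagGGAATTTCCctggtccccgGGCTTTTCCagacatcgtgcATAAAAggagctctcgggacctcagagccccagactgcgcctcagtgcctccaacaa
Cxcl1, chr5:90891125-90891244: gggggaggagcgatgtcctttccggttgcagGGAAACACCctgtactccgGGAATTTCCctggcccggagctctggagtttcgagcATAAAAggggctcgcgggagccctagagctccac
Cxcl3, chr5:90785981-90786100: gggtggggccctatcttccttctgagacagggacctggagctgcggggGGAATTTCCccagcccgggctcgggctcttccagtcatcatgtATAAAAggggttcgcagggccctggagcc
Ppbp, chr5:90768398-90768517: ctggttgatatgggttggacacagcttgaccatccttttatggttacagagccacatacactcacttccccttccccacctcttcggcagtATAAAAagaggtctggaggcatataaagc
Pf4, chr5:90772315-90772434: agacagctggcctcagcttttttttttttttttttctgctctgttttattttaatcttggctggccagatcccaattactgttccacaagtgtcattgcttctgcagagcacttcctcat

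The NF-kB motif occurred at 2 places in Cxcl2, starting 96 and 77 bases before the start, and at 2 places in Cxcl1, 89 bases before it on the reverse strand and 70 bases before it on the forward strand. Cxcl3, which was not tested, held 1 copy at 72 bases before the start. In the 300-base windows of Ppbp, Pf4, Cxcl12 and Cxcl14 (250 bases before the start and 50 after it), these letters were not found. Of 32851 promoters of the same length, 5.82% held the motif. The AP-1 motif TGANTCA, found in 7.81% of promoters, was present in Ppbp, the C/EBP motif TTGCNNAA (10.8%) and the GATA motif AGATAA (11.2%) in Pf4, and the ISRE motif GAAANNGAA (8.56%) in Cxcl14. ATAAAA, present on either strand in 18.5% of promoters, occurred in Cxcl1, Cxcl2, Cxcl3, Ppbp and Pf4. In Pf4 the GATA match began at base 37 after the start and the forward ATAAAA at base 39, so these overlap and lie downstream of the start. The other ATAAAA match of Pf4 was on the reverse strand, 77 bases before the start. Positions are counted from the RefSeq start, which for Cxcl2 lies inside the gene as annotated in GENCODE M21 (from chr5:90903871). The last bases printed for Cxcl2 are therefore within that gene. Matches are descriptions of the letters, not of binding.

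Cxcl2 (chr5:90903871-90905938 in GRCm38, GENCODE M21, forward strand) encodes MIP-2, a CXCR2 ligand that activated macrophages secrete. It had 464, 280 and 451 counts in the PP2A KO libraries and 146, 106 and 151 in the WT libraries of replicates 1, 2 and 3. Scaled to library size, these were 10.9, 8.48 and 10.8 CPM in PP2A KO and 2.94, 2.44 and 3.60 CPM in WT. All PP2A KO libraries lay above all WT libraries, and replicate 2 was the lowest of each genotype. The log2 fold change was 1.76 (SE 0.16, 95% interval 1.40 to 2.11), with an adjusted p of 9.29e-05 from edgeR. It ranged from 1.63 to 1.91 under 13 alternatives, all of which kept the call.

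Cxcl1 (chr5:90891241-90893115, forward strand), which encodes KC, another CXCR2 ligand made early in inflammation, was expressed at a lower level. Counts were 52, 34 and 45 in PP2A KO and 37, 10 and 12 in WT, or 1.23, 1.03 and 1.08 CPM against 0.745, 0.230 and 0.286 CPM. The 3 PP2A KO libraries were close together, and the groups did not overlap, but WT replicate 1 stood well above the other WT libraries. Cxcl1 had a log2 fold change of 1.36 (SE 0.38, 95% interval 0.51 to 2.21, adjusted p = 0.0190 from edgeR). Without WT replicate 1 it was 2.10. The call was lost without PP2A KO replicate 1 (1.28, adjusted p = 0.0652 from edgeR) and without WT replicate 2 (1.08, adjusted p = 0.0619 from edgeR). Within a library, the log2 ratio of Cxcl2 to Cxcl1 was 3.16 ± 0.14 in PP2A KO and 2.97 ± 0.88 in WT (SD, n = 3). It differed by 0.19 (exact permutation test, two-sided, p = 1.0), a test that cannot give a p under 0.1 with 3 against 3 libraries. The difference was -0.31 without WT replicate 1 and 0.51 without WT replicate 3, so its direction was not settled.

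Cxcl3 (chr5:90786103-90789600, forward strand), the third member of the GRO group of CXCR2 ligands, was at or near the floor. Its counts were 5, 11 and 1 in PP2A KO and 11, 10 and 1 in WT, or 0.118, 0.333 and 0.0240 CPM against 0.221, 0.230 and 0.0239 CPM. The groups overlapped throughout, and replicate 3 of both genotypes held a single count. In a fit without the filter on low counts the log2 fold change was -0.12 (SE 0.63, 95% interval -1.38 to 1.14, adjusted p = 0.935 from edgeR), an interval that includes both a rise and a fall of more than 1 on the log2 scale. The log2 ratio of Cxcl3 to Cxcl2 differed by -1.86 between PP2A KO and WT and did not pass the exact permutation test (p = 0.3, adjusted 0.4 over 4 ratios, smallest p possible 0.1). It was -0.95 without PP2A KO replicate 3 and -2.91 without WT replicate 3. Of the 50-base windows in Cxcl2 transcripts, 5.84% also occur in Cxcl3, so reads from the abundant gene could have been divided or discarded between them.

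Cxcl5 (chr5:90759360-90761624, forward strand), which encodes the CXCR2 ligand LIX, made mainly by epithelial and stromal cells, moved in the direction opposite to Cxcl1 and Cxcl2. It had 7, 12 and 4 counts in PP2A KO and 45, 28 and 15 in WT, or 0.165, 0.364 and 0.0959 CPM against 0.906, 0.644 and 0.358 CPM. PP2A KO replicate 2, the highest of its group, slightly exceeded WT replicate 3, the lowest of the other. Cxcl5 fell by 1.68 on the log2 scale (SE 0.49, 95% interval -2.79 to -0.58, adjusted p = 0.0241 from edgeR). The call was lost when PP2A KO replicate 1 (-1.56) or replicate 3 (-1.32) or WT replicate 1 (-1.33) or replicate 2 (-1.68) was left out, with adjusted p from 0.0613 to 0.0866 by edgeR. With few counts in all PP2A KO libraries, its size is known only loosely.

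**Figure D2:**
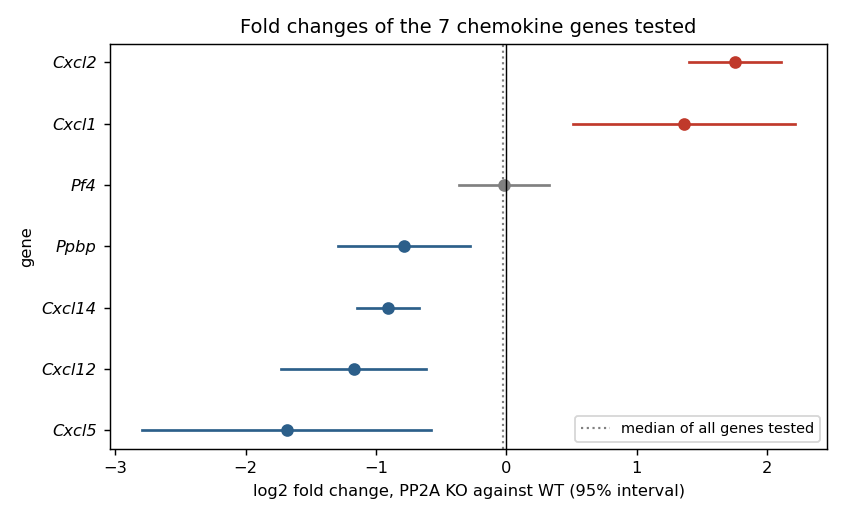
Log2 fold change of PP2A KO against WT for the 7 chemokine genes tested, with 95% intervals as bars. Red genes were higher and blue genes lower at FDR under 0.05 in edgeR, grey was not called, and the dotted line is the median of all genes tested (-0.02). The interval is narrow for Cxcl2 (1.40 to 2.11) and wide for Cxcl5 (-2.79 to -0.58).

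Ppbp (chr5:90768518-90770063, forward strand) and Pf4 (chr5:90772435-90773383, forward strand) encode the chemokines stored in platelet alpha-granules. PPBP is the precursor of the CXCR2 ligand NAP-2, whereas PF4 has no ELR motif and is a poor attractant of neutrophils. Ppbp had 45, 22 and 49 counts in PP2A KO and 77, 85 and 66 in WT, or 1.06, 0.666 and 1.17 CPM against 1.55, 1.95 and 1.57 CPM. All PP2A KO libraries lay under all WT libraries, with PP2A KO replicate 2 the lowest. Ppbp fell by 0.78 on the log2 scale (SE 0.23, 95% interval -1.29 to -0.28, adjusted p = 0.0226 from edgeR). The call was lost without PP2A KO replicate 2 (-0.60, adjusted p = 0.0715 from edgeR) and without WT replicate 2 (-0.67, adjusted p = 0.0907 from edgeR).

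Pf4, whose start lies a few kilobases from that of Ppbp, had 328, 280 and 420 counts in PP2A KO and 394, 337 and 460 in WT. In CPM these were 7.73, 8.48 and 10.1 against 7.93, 7.75 and 11.0. The groups overlapped fully, and replicate 3 was the highest of each genotype. The log2 fold change was -0.02 (SE 0.15, 95% interval -0.36 to 0.33, adjusted p = 0.941 from edgeR). Over the 13 alternatives it ranged from -0.13 to 0.16, with no call.

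Some megakaryocyte and platelet markers were lower, as was Ppbp. Of the 8 listed, 5 were tested and 3 were lower, against 19.0% of all genes tested. These 3 were Gp5 (-1.50, adjusted p = 0.00924 from edgeR), a subunit of the von Willebrand factor receptor, Vwf (-0.66, 0.00255) and Itga2b (-0.65, 0.0285), the integrin of the fibrinogen receptor. Gp1ba (-0.55, 0.139) and Clec1b (0.22, 0.459) were not called. Gp5 passed the filter on low counts only through the WT libraries, and 2 markers were called when at least 10 counts in every library were required. Their summed level was 53.1 to 75.8 CPM in PP2A KO and 93.1 to 107.1 CPM in WT libraries, and Gp1bb was at 0 in all 6. Most of that sum was Vwf, which endothelial cells also express. The part of such cells in the difference in Ppbp was not tested, and in bulk RNA fewer cells of a type cannot be told apart from less RNA per cell.

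CXCL12 (SDF-1), the ligand of CXCR4, is made in bone marrow mainly by stromal and endothelial cells. Its gene (chr6:117168535-117181367, forward strand) had 32, 32 and 24 counts in PP2A KO and 95, 83 and 54 in WT. The levels were 0.754, 0.969 and 0.575 CPM in PP2A KO and 1.91, 1.91 and 1.29 CPM in WT. No PP2A KO library reached the lowest WT library, and replicate 3 was the lowest of each genotype. Cxcl12 fell by 1.17 on the log2 scale (SE 0.25, 95% interval -1.73 to -0.61, adjusted p = 0.00536 from edgeR), and the call held in all 13 alternatives, with values from -1.35 to -0.99.

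Fibroblast markers were also lower. Of 8 listed, 7 were tested and 6 fell, against 19.0% lower among all genes tested. The median log2 difference of the markers tested was -1.42. The summed level of the list was 25.4 to 37.7 CPM in PP2A KO and 81.2 to 126.9 CPM in WT libraries. Col1a1, a chain of type I collagen, had 362, 235 and 278 counts in PP2A KO and 1722, 1510 and 1120 in WT, a log2 fold change of -2.10 (SE 0.13, adjusted p = 3.90e-05 from edgeR). The log2 ratio of Cxcl12 to Col1a1 within a library was -3.28 ± 0.37 in PP2A KO and -4.24 ± 0.11 in WT (SD, n = 3). This ratio was higher in all 3 PP2A KO libraries, by 0.96 on average (exact permutation test, p = 0.1, the smallest that 3 against 3 libraries allow, and 0.4 adjusted over 4 ratios). Of the fibroblast markers tested, Col1a1 fell the most. The others ranged from -2.05 for Col1a2 to -1.14 for Pdgfrb, with Dcn at -1.25 and Pdgfra at -1.33. Ratios of Cxcl12 to these markers were not tested, so the higher ratio is known for Col1a1 only. Of 5 endothelial markers, 3 were tested and 2 were higher, against 18.1% of all genes tested. These 2 were Kdr (1.09, adjusted p = 0.00157 from edgeR) and Cdh5 (1.40, 0.00261). Pecam1 was not called (0.34, 0.0643), and Tek and Emcn had at most 6 counts. The summed level was 200.8 to 249.6 CPM in PP2A KO and 86.8 to 137.8 CPM in WT libraries, most of it Kdr. Vwf, listed above with the platelet markers and also expressed by endothelial cells, was lower (-0.66). The part of stromal or endothelial cells in the difference in Cxcl12 was not tested.

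Cxcl14 (chr13:56288643-56296551, reverse strand), which encodes a constitutively expressed chemokine of epithelia and other tissues that acts on monocytes and dendritic cells, had the most counts of the 8 genes. These were 1383, 1135 and 1132 in PP2A KO and 2753, 2888 and 2289 in WT, or 32.6, 34.4 and 27.1 CPM against 55.4, 66.4 and 54.6 CPM. The groups were far apart, with every PP2A KO library under every WT library. Cxcl14 fell by 0.91 on the log2 scale (SE 0.11, 95% interval -1.14 to -0.67, adjusted p = 2.75e-04 from edgeR). The call held in all 13 alternatives, with values from -0.98 to -0.81. Of the epithelial markers, 0 of 5 passed the filter on low counts, with a summed level of 0.0303 to 0.276 CPM over the 6 libraries.

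To compare levels between genes, CPM were divided by the length of all annotated exons of a gene in kilobases. This length was 1875 bases for Cxcl1, 3498 for Cxcl3 and 8176 for Cxcl12. Their longest protein-coding transcripts have 953, 1016 and 5627 bases, so the order of genes close in level depends on the length used. In WT macrophages Cxcl14 was the highest at 32.2 CPM per kb, followed by Pf4 at 12.3, Ppbp at 1.56, Cxcl2 at 1.45, Cxcl5 at 0.341, Cxcl1 at 0.224, Cxcl12 at 0.208 and Cxcl3 at 0.0453 CPM per kb. The libraries of Ppbp and Cxcl2 overlapped, as did those of Cxcl5, Cxcl1 and Cxcl12. In PP2A KO the order by CPM per kb was Cxcl14 (17.2), Pf4 (12.1), Cxcl2 (4.87), Ppbp (0.893), Cxcl1 (0.593), Cxcl5 (0.112), Cxcl12 (0.0937) and Cxcl3 (0.0453). Cxcl2 had moved above Ppbp with no overlap, while Ppbp and Cxcl1 overlapped, as did Cxcl5, Cxcl12 and Cxcl3.

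The transcripts of the CXCR2 ligands Cxcl1, Cxcl2, Cxcl3, Cxcl5 and Ppbp differed in makeup between the genotypes. Their summed level was 7.04, 5.56 and 6.94 CPM per kb in PP2A KO and 3.80, 3.52 and 3.55 CPM per kb in WT libraries, higher in every PP2A KO library. Cxcl2 made up 75.1%, 73.8% and 75.3% of this sum in PP2A KO, and 37.4%, 33.5% and 49.1% in WT. Ppbp made up 13.9%, 11.1% and 15.6% in PP2A KO and 37.7%, 51.3% and 41.0% in WT. The prevailing ligand transcript was thus Cxcl2 in all PP2A KO libraries, whereas in WT it was Ppbp in replicates 1 and 2 and Cxcl2 in replicate 3. The order in WT replicate 1 turned with the length used, to 34.5% for Cxcl2 and 31.2% for Ppbp with the longest protein-coding transcript.

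The share of Cxcl5 was 1.84% ± 1.47 in PP2A KO and 9.35% ± 3.72 in WT (SD, n = 3), and that of Cxcl1 was 9.15% ± 0.809 and 6.08% ± 3.81. For Cxcl2, Ppbp and Cxcl5 the groups did not overlap (exact permutation test, two-sided, p = 0.1 each, the smallest p possible, and 0.167 adjusted over the 5 ligands), so no share could pass 0.05 in this design. Cxcl1 (p = 0.4, exact) and Cxcl3 (p = 0.6, exact) overlapped. The annotated exons of Cxcl1 and Cxcl3 include long transcripts without a coding sequence. With the longest protein-coding transcript as the length instead, an alternative added after the data were seen, Cxcl2 made up 69.6% ± 2.43 in PP2A KO and 38.8% ± 8.98 in WT, where Ppbp made up 37.8% ± 7.04, and Cxcl1 passed Ppbp in PP2A KO (15.1% against 11.4%).

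**Figure D3:**
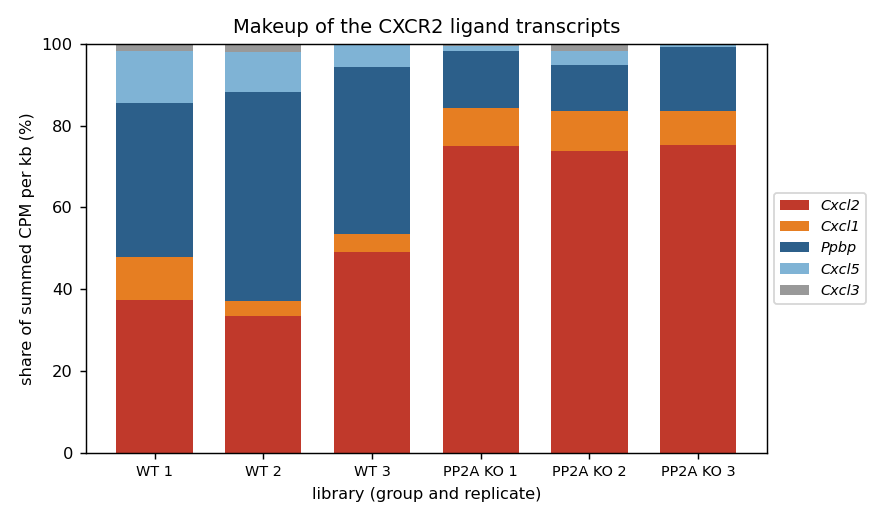
Share of each CXCR2 ligand in their summed CPM per kb of annotated exon, as stacked bars for each of the 6 libraries (percent). Cxcl2 (red) made up 73.8% to 75.3% in PP2A KO libraries and 33.5% to 49.1% in WT libraries, while Ppbp (dark blue) was 11.1% to 15.6% and 37.7% to 51.3%.

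Position in the cluster followed the direction of the differences only in part. Cxcl5, Ppbp, Pf4 and Cxcl3 lie in this order at one end, and Cxcl1 and Cxcl2 lie beside each other over 100 kb away, beyond Cxcl15, a chemokine gene of the lung that had 0 counts in every library. The genes that were lower and higher were therefore at opposite ends, with Pf4 between them not called. The protein-coding genes beyond Cxcl2 were Mthfd2l, a mitochondrial folate enzyme with a log2 fold change of -0.10 (adjusted p = 0.697 from edgeR), and the EGF family genes Epgn, Ereg and Areg. Of these, Ereg was lower (-1.73, adjusted p = 0.00677 from edgeR), having passed the filter on low counts only through the WT libraries, and Epgn and Areg were too low to be tested. Zfp637, next to Cxcl12 on chromosome 6, fell by 0.40 on the log2 scale (adjusted p = 0.0307 from edgeR). No annotated gene overlapped any of the 8.

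**Figure D4:**
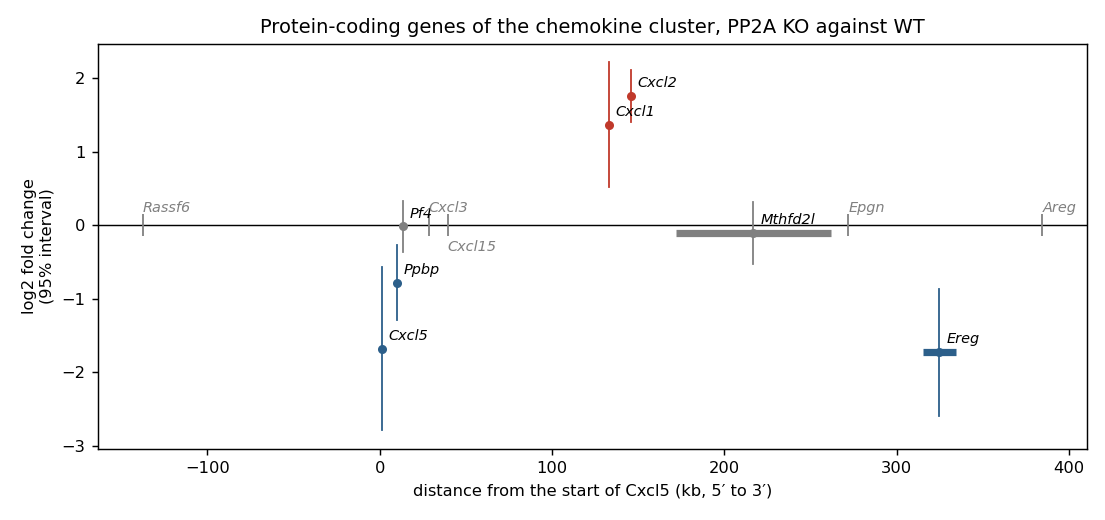
Protein-coding genes around the chemokine cluster, by distance from the start of Cxcl5 in kb (x axis), with the log2 fold change of PP2A KO against WT and its 95% interval (y axis). Thick bars span the longer genes, red is higher, blue lower and dark grey not called at FDR under 0.05 in edgeR, and ticks at 0 mark genes too low to be tested. Cxcl1 (1.36) and Cxcl2 (1.76) lie together, away from Cxcl5 (-1.68) and Ppbp (-0.78).

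The 3' untranslated regions of these genes differed in the pentamer ATTTA, the core of AU-rich elements. In GENCODE M21 transcripts the Cxcl1 region had 7 copies in 592 bases (11.8 per kb), and 0.714% of the 20599 genes with such a region of at least 50 bases had as high a density. Cxcl2 had 11 copies in 1494 bases (7.36 per kb, 2.87% of genes as high) and Cxcl3 had 5 in 645 bases (7.75 per kb, 2.47%). Cxcl5, which was lower, had 4.50 per kb (9.97%). Ppbp had 1.52 (45.0%), Cxcl12 0.771 (59.8%) and Cxcl14 none, against a median of 1.27 per kb over all genes. Pf4, which was not called, had 8.13 per kb (2.14%), from 1 copy in a region of 123 bases. The 30 bases with the most copies are shown for the pair of genes that rose and for Ppbp, with each ATTTA in capitals.
Cxcl1: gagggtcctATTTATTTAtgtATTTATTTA
Cxcl2: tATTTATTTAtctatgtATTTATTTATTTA
Ppbp: cgggcaagccaagttgcaacctgcaATTTA

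Genes of the surrounding pathway were taken from 6 lists, of which 63 of 78 genes were tested, 36 were higher and 5 lower, beside 18.1% higher and 19.0% lower among all genes tested. In the list of NF-kB induction, 24 of 24 genes were tested, 16 were higher and 1 lower. The median of the list was 0.58 on the log2 scale. The largest differences were in the inhibitors Nfkbie (1.62, adjusted p = 5.40e-05 from edgeR) and Nfkbia (1.49, 1.48e-05), both NF-kB targets that hold it in the cytoplasm, and in Tnfaip3 (1.31, 6.16e-05), which encodes the deubiquitinase A20. Nfkbia was at 339.9 ± 20.9 CPM in PP2A KO and 120.7 ± 4.58 CPM in WT (SD, n = 3). Genes that act on mRNA stability were higher in 9 of 15 cases and lower in 0, with a median of 0.26. They included Zfp36, which encodes tristetraprolin (0.86, adjusted p = 5.51e-05 from edgeR), Zc3h12a, the RNase regnase-1 (0.67, 1.76e-04), and Dusp1, a phosphatase of p38 (1.05, 1.69e-04).

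Receptors of these ligands were mostly low in the macrophages. Cxcr2 had 0 to 3 counts and Cxcr1 5 to 10 counts in every library. Cxcr4 was abundant, with 345.5, 375.8 and 337.8 CPM in PP2A KO and 381.0, 370.7 and 347.1 CPM in WT, and the groups overlapped (log2 fold change -0.05, SE 0.07, adjusted p = 0.596 from edgeR). Ackr3, a scavenging receptor of CXCL12, had 0.377, 0.333 and 0.0959 CPM in PP2A KO and 1.25, 0.828 and 0.525 CPM in WT. All its PP2A KO libraries lay under the WT libraries, and the gene fell by 1.71 on the log2 scale (SE 0.46, adjusted p = 0.0174 from edgeR). Ackr3 passed the filter on low counts only through the WT libraries. The call was lost without PP2A KO replicate 3, and the gene was not tested when at least 10 counts in every library were required.

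Proteases that trim CXC chemokines moved in both directions, with 8 of 11 tested, 3 higher and 2 lower, where the shares among all genes tested were 18.1% and 19.0%. Dpp4, which inactivates CXCL12, was higher (2.61, adjusted p = 6.33e-04 from edgeR) at 3.23, 2.48 and 1.37 CPM against 0.503, 0.276 and 0.358 CPM. Mmp13 (1.75, 0.00150) and Mmp14 (0.89, 3.90e-05) were higher too, while Mmp12 and Ctsk, the macrophage elastase and cathepsin K, were lower (-0.74 and -0.87). Among other cytokines and mediators of neutrophil recruitment, 10 of 16 were tested, 4 were higher and 1 lower. Tnf (1.61, adjusted p = 5.40e-05 from edgeR), Il1b (1.51, 0.00149) and Ccl3 (1.41, 7.41e-05) led, and Csf3, the gene of G-CSF, had 0 to 2 counts in every library. Of the other CXC chemokines, 4 of 7 were tested and all 4 were higher, with the CXCR3 ligands Cxcl11 (2.74), Cxcl9 (2.24) and Cxcl10 (1.36) leading.

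**Figure D5:**
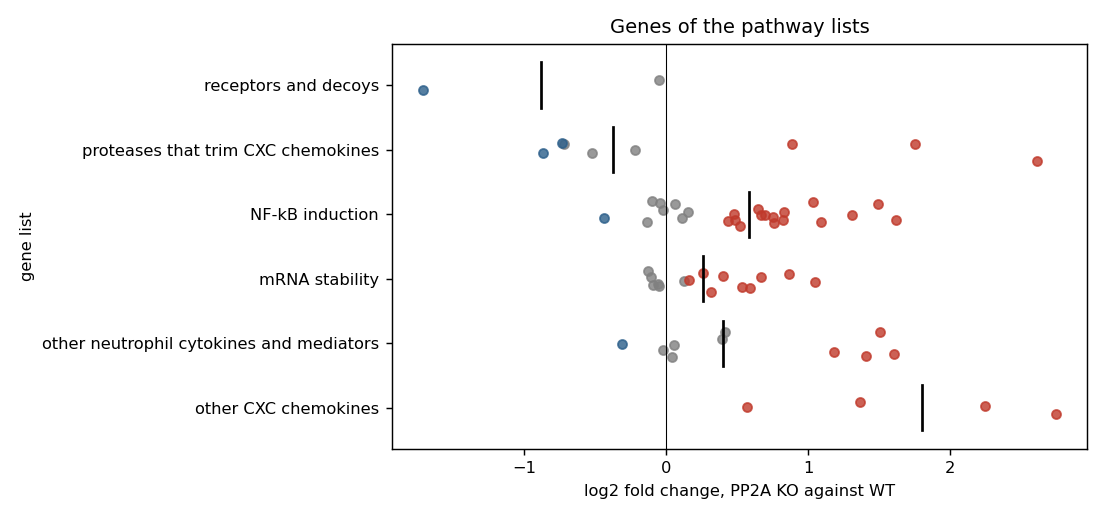
Log2 fold change of PP2A KO against WT (x axis) for each tested gene of the 6 pathway lists (rows). Points are genes, red higher, blue lower and grey not called at FDR under 0.05 in edgeR, and black ticks are list medians. The NF-kB list has 16 of 24 genes higher, with a median of 0.58, and all 4 of the other CXC chemokines tested were higher.

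Genes whose log2 CPM over the 6 libraries was most like that of a chemokine were listed among 11440 genes with a mean of at least 1 CPM. For Cxcl2 these were Scly (Pearson r = 0.999), Zmat2, Igsf6, Ccl3 and Glrx, and for Cxcl1 Naip2 (0.998), Fam20b, Gtf2a1, Asph and Agps. Cxcl12 was most like Rbfox2 (0.999), Elovl7, Hist2h2be, Timp3 and Sod3, all 5 of them lower in PP2A KO. Cxcl3 was most like Cdnf (0.988), Wrap53, Angpt2, Zbtb42 and Tmem116, of which 0 were called. With 1 to 11 counts in each library, Cxcl3 was at or near the floor, and its matches cannot be read. The points share their libraries and the step between genotypes, so these values describe only 6 libraries. Among the genes most like Cxcl2, the log2 fold change ranged from 0.14 for Zmat2 to 1.41 for Ccl3.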

How the data were processed

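Poly(A) RNA of 6 libraries of mouse BMDM was made into stranded libraries and read from both ends. The authors deposited whole-number read counts per gene, without normalization. The submitters' processing notes name fastp 0.20.0, kallisto 0.46.1, STAR 2.7.1a, HTSeq 0.11.2, edgeR 3.34.0 and limma 3.48.3, with build mm10, without saying which step made the table. How reads shared by paralogs were counted is not given in the sources used here.

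The tests used edgeR 4.0.16 in R 4.3.3. Genes kept by filterByExpr (minimum count 10, minimum total 15) were scaled by TMM, whose factors gave the CPM. Genotype was tested alone with glmQLFit and glmQLFTest, and p-values were adjusted by Benjamini-Hochberg over these 13680 genes. SE is the absolute log2 fold change over the square root of F. Shares and ratios were compared by exact permutation tests over libraries. The fit was tested on simulated counts.

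Both genotypes carry replicate numbers 1, 2 and 3 in the labels. Deviations from group means of same-numbered libraries correlated across genes at 0.289, 0.148 and 0.337, so the numbers were taken as pairs in an alternative fit. Other alternatives were scaling by RLE or by the upper quartile, no filter, at least 10 counts in every library, DESeq2 1.42.0, limma-voom 3.58.1 and each library left out in turn.

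Coordinates and exon lengths came from GENCODE M21, matched by symbol for 98.3% of genes. The members and lists were chosen with earlier results of these data known. Named were all 8 genes, up to 3 called genes with the largest absolute change from each pathway list, defining markers, adjacent protein-coding genes, and the 5 genes most like Cxcl1, Cxcl2, Cxcl3 and Cxcl12. Cxcr1, Cxcr2, Cxcr4, Csf3, Mmp12 and Ctsk, the motifs, and the ATTTA count were added after values or sequences were seen.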

Additional observations from a re-analysis of the deposited data

How the results depend on the processing

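With 3 libraries per genotype, genes with few counts (Cxcl1, Cxcl5, Ppbp and Cxcl12) have wide intervals, and Cxcl3 cannot be read. Of the 7 genes tested, Cxcl2, Cxcl12, Cxcl14 and Pf4 kept their side of the threshold under all alternatives, and Cxcl1, Cxcl5 and Ppbp under all except single libraries left out. With at least 10 counts in every library, Cxcl5 was not tested. Over all genes, 1974 to 2721 were called higher and 1873 to 2720 lower with a library left out. With a library left out, the log2 fold change was 1.08 to 2.10 for Cxcl1, -2.27 to -1.32 for Cxcl5 (the lowest without PP2A KO replicate 2) and -0.94 to -0.60 for Ppbp, the number of the 8 genes called was 1 to 2 higher and 2 to 4 lower, and the lists had 0 to 1 (receptors and decoys), 1 to 3 (macrophage) and 0 to 1 (dendritic cell) genes called.

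With the replicate number as a block, no call changed among the 7 genes (adjusted p = 0.00295 for Cxcl1, 1.41e-07 for Cxcl2, 0.00397 for Cxcl5, 0.0151 for Ppbp, 0.862 for Pf4, 4.87e-04 for Cxcl12 and 2.19e-07 for Cxcl14, all from edgeR), and the macrophage markers called went from 2 to 5. With the block, calls among all genes also went from 2470 to 3343 higher and from 2604 to 3615 lower. Under upper-quartile scaling 1 macrophage marker was called, with 2095 of all genes higher and 3356 lower. Against 1 in the reported fit, 2 dendritic cell markers were called without a filter, and with at least 10 counts in every library 0, as were 0 receptors and decoys. With protein-coding lengths, added after seeing the data, the difference in the Cxcl3 share went from -0.48 to -1.51 percentage points. With a library left out it was -1.0 (without WT replicate 3) to -0.15 (without PP2A KO replicate 3), and that of the Cxcl1 share 1.77 (without WT replicate 2) to 5.25 (without WT replicate 1) against 3.07. The causes were not tested.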
